A study of Mus musculus with 9 samples.

Results

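The 9 genes described here encode the basement membrane that primitive endoderm is known to lay down: the laminin chains Lama1, Lamb1 and Lamc1, the collagen IV chains Col4a1 and Col4a2, the nidogens Nid1 and Nid2, the proteoglycan core Hspg2 (perlecan), and the matrix glycoprotein Sparc. They were taken by name from the 25965 genes of the expression table, each name was found once, and all 9 were among the 14601 genes with enough signal to be tested. Expression was measured by polyA RNA-seq in E14 mouse embryonic stem cells (ESCs), a feeder-free line of 129/Ola background kept in serum and LIF. The paper states that the siRNAs were given to reporter cells carrying MERVL::tdTomato and Zscan4c::eGFP. The 3 treatments were control siRNA, Dppa2 siRNA and Dppa4 siRNA, with 3 libraries each (A, B, and C). All cells, controls included, were transfected at 0 h and again at 48 h and were collected at 96 h (4 d). The design asks whether loss of Dppa2 or of Dppa4, a pair of related chromatin proteins of early embryos and ESCs, changes transcript levels. The siRNA libraries are all of 1 line. The study calls its siRNA replicates biological, but the labels do not say whether the libraries of a treatment came from separate cultures. The p-values measure the spread between these libraries.

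A basement membrane is a thin sheet of matrix beneath epithelia. Laminin trimers, each made of an alpha, a beta and a gamma chain, polymerise on the cell surface, collagen IV forms a second, covalently linked network, and nidogens and perlecan join the networks. In the mouse blastocyst the primitive endoderm, which is marked by the transcription factors Gata6, Gata4 and Sox17, faces the epiblast across such a sheet, and its parietal descendants secrete large amounts of laminin-111 (the trimer of Lama1, Lamb1 and Lamc1), collagen IV and Sparc. ESCs themselves also make laminin and collagen IV.

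The members lie on 8 chromosomes, and the only neighbours are Col4a1 and Col4a2, which are transcribed away from each other on mouse chromosome 8. On GRCm38, Col4a1 spans chr8:11198423-11312826 on the minus strand and Col4a2 spans chr8:11312805-11449287 on the plus strand, so the annotated first exons overlap by 22 bases. These bases, chr8:11312805-11312826 on the strand of Col4a2, are shown because the annotated starts of Col4a1 and Col4a2 are their last and first base, and the capitals mark the only GC box (GGGCGG, a binding motif of Sp1-type factors) in them.
Col4a1 and Col4a2: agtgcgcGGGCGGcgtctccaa

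Promoter windows from RefSeq (GRCm38.p6, 250 bases before to 50 bases after the start) were at hand for 6 members, Lamb1, Col4a1, Col4a2, Nid1, Hspg2 and Sparc. Nid1 and Hspg2 are printed because their transcripts moved together across the libraries (below), and Lamb1 because its transcript did not follow them. Only the part before every annotated start is given, 5′ to 3′ on the plus strand: chr13:13437352-13437550 for Nid1, chr4:137468553-137468768 for Hspg2, and chr12:31265043-31265233 for Lamb1. Capitals mark GC boxes on either strand (GGGCGG or CCGCCC).
Nid1: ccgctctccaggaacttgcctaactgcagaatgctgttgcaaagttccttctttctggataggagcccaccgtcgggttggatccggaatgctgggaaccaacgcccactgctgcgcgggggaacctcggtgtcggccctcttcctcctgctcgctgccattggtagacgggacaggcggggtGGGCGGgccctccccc
Hspg2: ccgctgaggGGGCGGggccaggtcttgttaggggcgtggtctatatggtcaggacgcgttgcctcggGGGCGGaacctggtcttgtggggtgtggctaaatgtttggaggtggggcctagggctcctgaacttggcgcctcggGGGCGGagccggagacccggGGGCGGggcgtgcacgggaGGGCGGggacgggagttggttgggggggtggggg
Lamb1: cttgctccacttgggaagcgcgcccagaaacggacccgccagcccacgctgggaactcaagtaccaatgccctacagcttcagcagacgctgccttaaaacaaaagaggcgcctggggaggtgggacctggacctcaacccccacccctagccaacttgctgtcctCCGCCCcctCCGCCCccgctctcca

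Over the whole 300-base windows, read on both strands, the GC box was found 5 times in Hspg2, 3 times in Col4a2, 2 times in Lamb1, once each in Col4a1 and Nid1, and 0 times in Sparc, and 35.7% of all 32851 windows hold it. The windows of Col4a1 and Col4a2 overlap, and the box of Col4a1 is also counted among the 3 of Col4a2. The CCAAT box (CCAAT) was found once each in Lamb1, Col4a1, Col4a2 and Nid1, against 37.4% of all windows. Neither the TATA box (TATAAA, 13.6% of all windows) nor a GATA site (GATAA or GATAG with an A or a T before it, 29.8% of all windows) was found in the 6 windows. The windows of the members were 55.3% to 74.0% GC, with a median of 52.7% over all windows. These are letter matches only, and promoter activity was not measured.

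The siRNAs lowered their targets. Dppa2 was 7.12 ± 0.17 (SD, n = 3) on the log2 scale with control siRNA and 3.64 ± 0.25 with Dppa2 siRNA, a drop of 3.49 (adjusted p = 2.13e-05, limma). Dppa4 was 7.06 ± 0.05 with control siRNA and 6.13 ± 0.03 with Dppa4 siRNA, and fell by 0.93 (adjusted p = 0.000281). Dppa4 RNA in these libraries was thus still at 0.52 of the control level. The paper reports a larger loss of Dppa4 mRNA, measured by qRT-PCR. Dppa2 RNA differed from control by -0.05 with Dppa4 siRNA (adjusted p = 0.921), and Dppa4 RNA by 0.05 with Dppa2 siRNA (adjusted p = 0.888). For protein, the paper reports that Dppa4 siRNA also reduced Dppa2, and that Dppa2 siRNA reduced Dppa4 to a smaller extent. The knockdowns are thus not separate losses at the protein level. Estimated reads on genes were 17.21 to 39.97 Mreads in a library, and single members had between 201 reads (Col4a2) and 15159 reads (Hspg2) in a library. Libraries of the same treatment differed along 1 direction, the first principal component, which held 81.3% of the within-treatment variance of 8577 well expressed genes. Deviations of libraries followed both transcript length (Spearman rho across genes of -0.47 to 0.60) and GC content (-0.44 to 0.62), and GC more strongly than length in libraries A and B of Dppa4 siRNA. The length tilt of a library, the median log2 deviation of genes with at least 7.787 kb of exons minus that of genes with at most 2.589 kb, was 0.63 in control library A and -0.40 in control library C and between -0.28 and 0.39 in the other 7. Control libraries A and C thus had the highest and the lowest tilt of the 9, with library B of Dppa2 siRNA, at 0.39, about as far from 0 as control C. The differences of the members are also given without control libraries A and C, which leaves control library B alone.

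None of the 9 members passed the test in either knockdown. With Dppa2 siRNA, 502 of 14601 tested genes passed (3.44%, of which 1.16% higher and 2.27% lower), and 0 of the 9 members did. With Dppa4 siRNA, 502 genes passed as well (3.44%, 1.10% higher and 2.34% lower), again with 0 members. At an unadjusted p under 0.05, 2292 genes passed with Dppa2 siRNA, among them Sparc (unadjusted p = 0.0156), and 2634 genes passed with Dppa4 siRNA, among them Lamb1 (unadjusted p = 0.0055). The median log2 difference of the members from control was -0.12 for the Dppa2 knockdown, beside 0.02 over all tested genes, and 0.04 for the Dppa4 knockdown, beside 0.03. Both knockdowns were set against the same 3 control libraries. Differences are in log2 units of the normalized table, and the 95% intervals given with them are for each gene alone, with no adjustment for the number of genes.

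**Figure D1:**
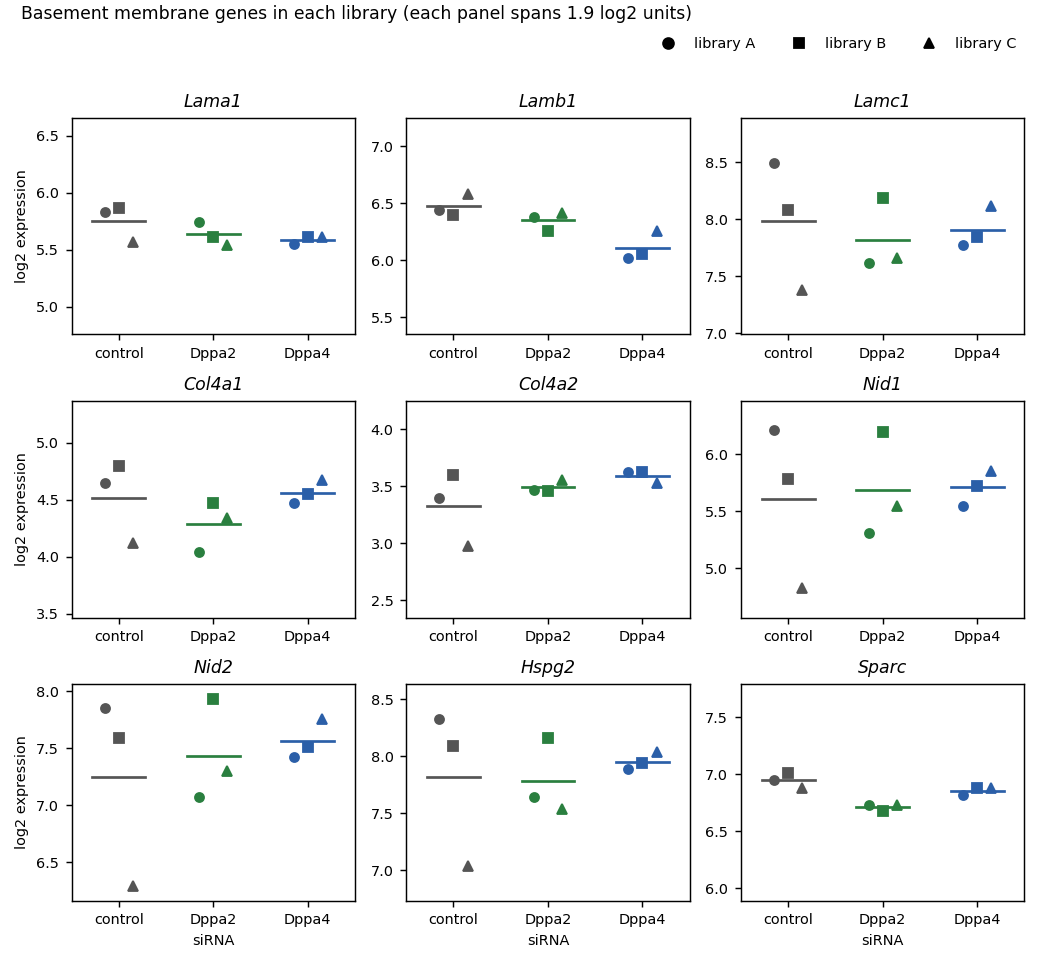
Normalized log2 expression of each member in the 9 libraries, by siRNA, with a symbol for each library and a line at the group mean; every panel spans the same number of log2 units. Lamc1, Nid1, Nid2 and Hspg2 spread widely within the control and Dppa2 siRNA groups, whereas Sparc, Lama1 and Lamb1 are tight, and the Dppa4 siRNA values of Lamb1, from 6.02 to 6.26, lie below all control values.

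The laminin-111 chains behaved differently from each other. Lama1, the alpha chain, was 5.83, 5.87 and 5.57 in control libraries A, B and C, 5.74, 5.61 and 5.54 with Dppa2 siRNA, and 5.55, 5.61 and 5.61 with Dppa4 siRNA. The groups overlapped, and the differences from control were -0.12 (95% interval -0.36 to 0.12, adjusted p = 0.726) and -0.17 (-0.41 to 0.07, adjusted p = 0.487), or -0.23 and -0.28 without control libraries A and C. Lama1 is annotated at chr17:67697259-67822647 with 63 exons in its longest transcript.

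Lamb1, the beta chain (chr12:31265234-31329644), was 6.44, 6.40 and 6.58 with control siRNA, 6.38, 6.26 and 6.41 with Dppa2 siRNA, and 6.02, 6.06 and 6.26 with Dppa4 siRNA. All 3 libraries of Dppa4 siRNA lay below all 3 control libraries, and also below all 3 libraries of Dppa2 siRNA. With Dppa4 siRNA the difference from control was -0.36 (95% interval -0.59 to -0.14, SE 0.10, adjusted p = 0.0928), which missed the threshold, and it ranged from -0.44 to -0.31 when any 1 library was left out and was -0.29 without control libraries A and C, which leaves 1 control library that is assumed to vary like the other groups. The first component of the libraries was computed from deviations from the treatment means, so as a covariate it cannot change the difference. With it, an alternative chosen after seeing the data, the adjusted p was 0.00641, the lowest over 20 alternatives. This covariate takes up spread of the same libraries, and 3607 genes were then called in place of 502. The lower p is therefore no support for a change of Lamb1. With Dppa2 siRNA the difference was -0.12 (-0.35 to 0.10, adjusted p = 0.690), or -0.0495 without control libraries A and C.

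Lamc1, the gamma chain shared by most laminins (chr1:153218922-153332786), had the highest mean of the members, 7.90 on the log2 scale. It was 8.50, 8.08 and 7.38 with control siRNA, 7.61, 8.19 and 7.66 with Dppa2 siRNA, and 7.78, 7.84 and 8.11 with Dppa4 siRNA. The spread inside the control group alone was wider than any distance between group means. The differences from control were -0.17 (95% interval -0.77 to 0.44, adjusted p = 0.905) and -0.08 (-0.68 to 0.53, adjusted p = 0.939), so changes of this order in either direction could not be detected. Without control libraries A and C they were -0.26 and -0.17.

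The collagen IV chains were the lowest members. Col4a1 was 4.65, 4.80 and 4.12 with control siRNA, 4.04, 4.47 and 4.34 with Dppa2 siRNA, and 4.47, 4.55 and 4.67 with Dppa4 siRNA. Col4a2, whose chain joins pairs of the Col4a1 chain in the common collagen IV trimer, was 3.40, 3.60 and 2.97 with control siRNA, 3.47, 3.45 and 3.55 with Dppa2 siRNA, and 3.63, 3.62 and 3.53 with Dppa4 siRNA. In both genes control library C was the lowest of the controls, and the groups overlapped. For Col4a1 the differences from control were -0.23 (95% interval -0.65 to 0.18, adjusted p = 0.678) with Dppa2 siRNA and 0.04 (-0.37 to 0.46, adjusted p = 0.952) with Dppa4 siRNA. For Col4a2 they were 0.17 (-0.18 to 0.52, adjusted p = 0.744) and 0.27 (-0.08 to 0.62, adjusted p = 0.421). Without control libraries A and C the differences of Col4a1 were -0.51 and -0.23, the first over 2 times the value with them, and those of Col4a2 were -0.11 and -0.00922, both with the sign turned. Col4a1 stood above Col4a2 in all 9 libraries, by 0.57 to 1.25 log2 units before any correction for length, with a mean of 0.99. The transcript identifiers listed on these rows belong to neighbouring genes (the antisense gene Gm15418 on the Col4a1 row and Col4a1 on the Col4a2 row), so the rows were identified by name and place.

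The nidogens, which bridge laminin and collagen IV, varied most between libraries. Nid1 (chr13:13437551-13512269) was 6.21, 5.78 and 4.83 with control siRNA, 5.31, 6.20 and 5.55 with Dppa2 siRNA, and 5.55, 5.73 and 5.85 with Dppa4 siRNA. Nid2 (chr14:19751265-19811787) was 7.85, 7.59 and 6.29 with control siRNA, 7.07, 7.93 and 7.30 with Dppa2 siRNA, and 7.42, 7.51 and 7.75 with Dppa4 siRNA. Control library C was the lowest of all 9 for both genes, and the control values bracketed nearly all others. The differences of Nid1 from control were 0.08 (95% interval -0.68 to 0.84, adjusted p = 0.978) and 0.10 (-0.66 to 0.87, adjusted p = 0.933). Those of Nid2 were 0.19 (-0.66 to 1.04, adjusted p = 0.931) and 0.32 (-0.53 to 1.17, adjusted p = 0.754). Without control libraries A and C, all 4 turned negative, at -0.10 and -0.07 for Nid1 and -0.15 and -0.03 for Nid2. Of the 50-base stretches searched in the Nid1 transcript, 2.07% also occur in another gene, and for the other 8 members this share was 0%.

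Hspg2, the core protein of the heparan sulphate proteoglycan perlecan (chr4:137468769-137570630, 97 exons), was 8.33, 8.08 and 7.04 with control siRNA, 7.64, 8.16 and 7.54 with Dppa2 siRNA, and 7.88, 7.94 and 8.03 with Dppa4 siRNA. The 3 libraries of Dppa4 siRNA fell inside the range of the controls. The differences from control were -0.04 (95% interval -0.72 to 0.65, adjusted p = 0.988) and 0.13 (-0.55 to 0.82, adjusted p = 0.895), and without control libraries A and C they were -0.31 and -0.13.

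Sparc, a collagen-binding glycoprotein that associates with basement membranes (chr11:55394500-55423183), was 6.95, 7.01 and 6.88 with control siRNA, 6.73, 6.67 and 6.73 with Dppa2 siRNA, and 6.81, 6.88 and 6.88 with Dppa4 siRNA. All libraries of both knockdowns lay below all control libraries, although the highest library of Dppa4 siRNA and the lowest control both round to 6.88. The difference with Dppa2 siRNA was -0.23 (95% interval -0.41 to -0.06, SE 0.08, adjusted p = 0.177), which missed the threshold, and it was -0.30 without control libraries A and C. With the first component as a covariate the adjusted p was 0.0104, the lowest of a range that reached 0.448 over 20 alternatives. That component held only 4.54% of the within-treatment variance of Sparc, and with it 2981 genes were called in place of 502. The lower p is therefore no support for a change of Sparc. With Dppa4 siRNA the difference was -0.09 (-0.27 to 0.09, adjusted p = 0.649), or -0.15 without control libraries A and C. Groups that do not overlap were common in these data: with Dppa2 siRNA 9.57% of tested genes had all 3 libraries above the controls and 8.20% below, against 0 and 1 of the 9 members, and with Dppa4 siRNA 13.7% were above and 10.2% below, against 0 and 2 members.

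**Figure D2:**
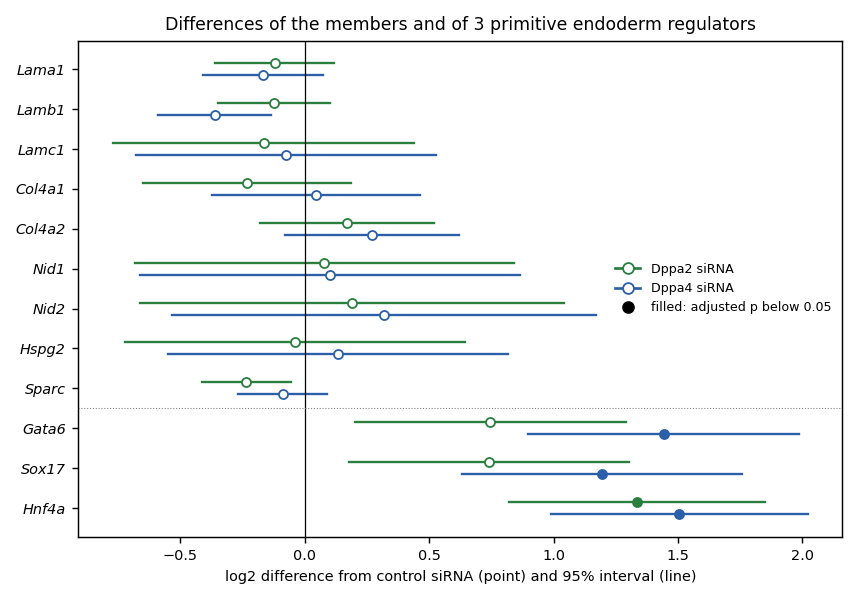
Log2 difference from control siRNA with its 95% interval for the 9 members and, below the dotted line, for Gata6, Sox17 and Hnf4a. These 3 are shown because they were the primitive endoderm genes that passed the test in a knockdown. Dppa2 siRNA is in green and Dppa4 siRNA in blue, with filled points at an adjusted p below 0.05. No member is filled, the intervals of Nid2 reach from -0.66 to 1.04 and from -0.53 to 1.17, and those of the 3 transcription factors lie above 0.

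Compared directly, the knockdowns gave no call in any member. Only 3 of the tested genes passed between Dppa4 siRNA and Dppa2 siRNA (0.0205%), and none was a member. At an unadjusted p under 0.05, 987 genes passed, including Lamb1, for which Dppa4 siRNA minus Dppa2 siRNA was -0.24 (95% interval -0.46 to -0.01, adjusted p = 0.724). Sparc was higher with Dppa4 siRNA in all 3 libraries, by 0.15 on average (-0.03 to 0.32, adjusted p = 0.801). The median over the members was 0.10, beside 0.00 over all tested genes.

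The members ranged from steady to variable genes. The within-treatment SD was 0.05 log2 units for Sparc, at percentile 1 of the tested genes, 0.10 for Lamb1, and 0.11 for Lama1. It was 0.56 for Nid2, 0.49 for Nid1, 0.44 for Hspg2, and 0.39 for Lamc1. Col4a1, at 0.25, and Col4a2, at 0.19, lay between these. The median was 0.24 over tested genes, which include many of low expression, and 0.19 over the well expressed genes of the first component. Lamc1, Nid1, Nid2 and Hspg2 moved together: their 6 pairwise Pearson correlations over the 9 libraries were 0.88 to 0.97, and 0.91 to 0.99 without the 2 libraries farthest from the median tilt (control A and Dppa2 siRNA B). The 10 correlations among the other 5 members were -0.71 to 0.59, and the 20 between the sets were -0.46 to 0.79. Without the 2 farthest libraries these became -0.71 to 0.70 and -0.66 to 0.92, with Col4a2 and Nid2 at 0.92 and Lamc1 and Col4a1 at 0.91, so the collagen IV chains then reached the range of the 4 genes, which are not a separate set on that basis. These correlations describe libraries that share the direction noted above, and the sets were formed after their values were seen.

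Several members followed the length tilt. Over the 9 libraries, r with the tilt was 0.96 for Lamc1 (Spearman rho 0.98), 0.91 for Nid1 (rho 1), 0.83 for Hspg2 (rho 0.93), and 0.81 for Nid2 (rho 0.97). Without the 2 farthest libraries these r were 0.95, 0.89, 0.82 and 0.85. It was 0.63 for Col4a1, 0.46 for Lama1, 0.17 for both Col4a2 and Sparc, and 0.02 for Lamb1. Without the same 2 libraries it was 0.86 for Col4a1, which is above Hspg2 and Nid2, 0.60 for Col4a2, 0.47 for Sparc, 0.33 for Lama1, and -0.28 for Lamb1, so the tilt does not divide the members sharply. The first component held 97.2% of the within-treatment variance of Lamc1 and of Nid1, 91.1% of Nid2, 86.8% of Hspg2, and 65.6% of Col4a1, but 4.54% of Sparc, 15.2% of Lamb1, 20.6% of Col4a2, and 23.9% of Lama1. Over all genes of the component the median was 79.5%, with quartiles of 45.0% and 93.0%. Lamc1 and Nid1 thus lay above the upper quartile, Nid2, Hspg2 and Col4a1 between the quartiles, and the 4 lowest members below the lower quartile. Lama1, with 9.68 kb of exons, was steady, and Nid2, with 5.17 kb, was variable. The part of the tilt in these values was not tested.

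**Figure D3:**
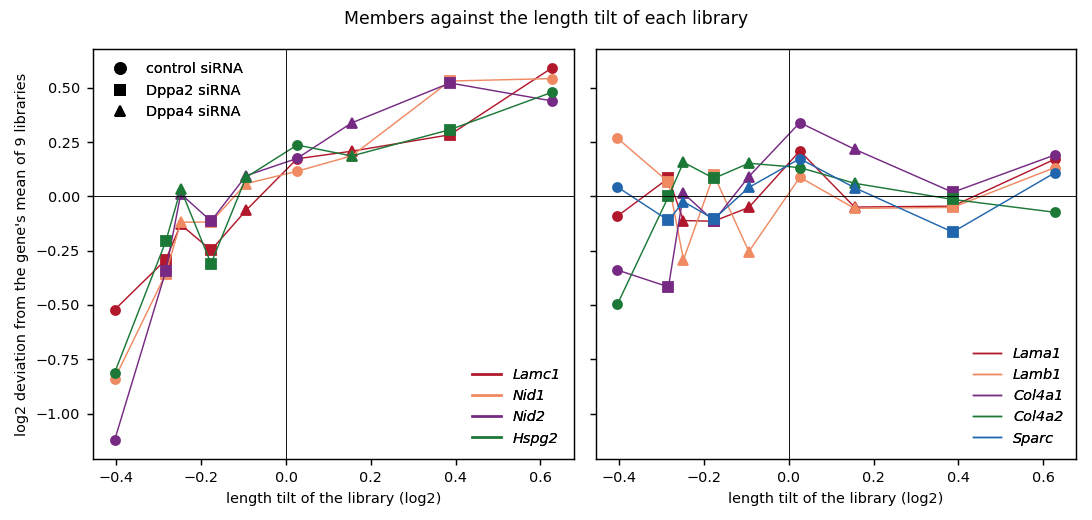
Log2 deviation of each member from its own mean over 9 libraries against the length tilt of the library, with Lamc1, Nid1, Nid2 and Hspg2 on the left and the other 5 members on the right; symbols give the siRNA and lines join the libraries in order of tilt. The left-hand genes are lowest in control library C at a tilt of -0.40 and high in control library A at 0.63, and the right-hand genes show no common course, with r of -0.28 (Lamb1) to 0.86 (Col4a1) without the 2 farthest libraries.

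The genes most like the mean of the members across the 9 libraries came from many functions. Spg11 had r = 0.99 with it, followed by Dnmt1, Sgtb, Ncapd3, N4bp1, Prrc2b, Npepps, Usp53, Vps35 and Iars, all at 0.99. Of 14590 genes compared, 741 had r above 0.9, so the likeness was shared widely. Taken singly, the closest gene was Was for Lama1 (r = 0.92), Ccdc112 for Lamb1 (0.98), Rnf125 for Lamc1 (0.995), Gnl3 for Col4a1 (0.97), Slx1b for Col4a2 (0.99), Kansl1 for Nid1 (0.99), Sun1 for Nid2 (0.99), Ap2b1 for Hspg2 (0.99), and Zfp566 for Sparc (0.97). Members were left out of these searches, so partner chains were compared apart. Their r was 0.34 for Lama1 and Lamb1, 0.54 for Lama1 and Lamc1, -0.12 for Lamb1 and Lamc1, and 0.54 for Col4a1 and Col4a2. The r of the closest genes are the highest of 14590 over only 9 libraries, so they are no yardstick for a given pair.

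Levels can be compared between genes only per length. Per kilobase of merged exons, on the log2 scale, the mean level over 9 libraries was 5.04 ± 0.50 (SD) for Nid2, 4.92 ± 0.11 for Sparc, 4.86 ± 0.34 for Lamc1, 4.01 ± 0.39 for Hspg2, 3.0 ± 0.18 for Lamb1, 2.87 ± 0.43 for Nid1, 2.38 ± 0.12 for Lama1, 1.56 ± 0.25 for Col4a1, and 0.74 ± 0.20 for Col4a2. Nid2, Sparc and Lamc1 were not separable, since Nid2 was above Sparc in 7 libraries and Sparc above Lamc1 in 6. Lamb1 and Nid1 were not separable either, with Lamb1 above Nid1 in 4 libraries. Lamc1 was above Hspg2, Lama1 above Col4a1, and Col4a1 above Col4a2 in all 9 libraries, and Hspg2 above Lamb1 and Nid1 above Lama1 in 8. With the length of the longest transcript instead, Sparc came first at 5.64, ahead of Nid2 at 5.13, and Lamb1 rose to 3.78. Among the laminin-111 chains the order was Lamc1, Lamb1, Lama1 with either length.

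**Figure D4:**
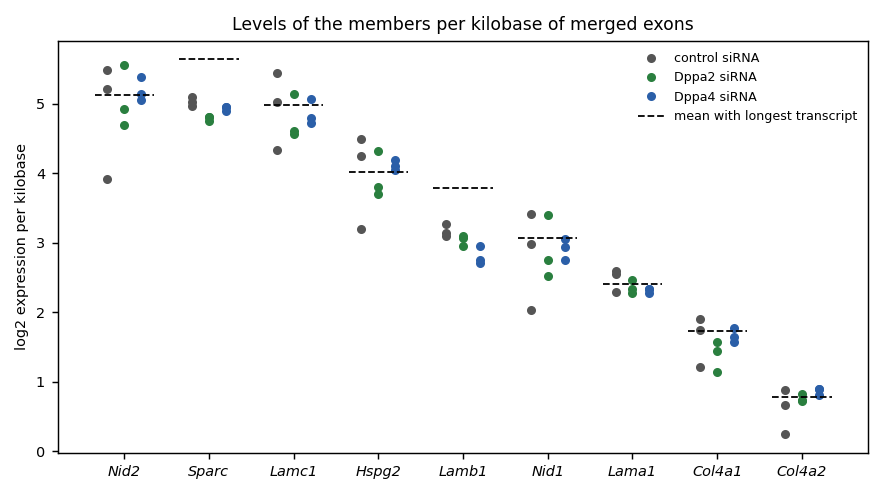
Log2 expression per kilobase of merged exons for each member in the 9 libraries, by siRNA, with a dashed line at the mean computed with the longest transcript. The levels run from 5.04 for Nid2 to 0.74 for Col4a2, and the dashed lines of Sparc (5.64) and Lamb1 (3.78) lie above their points.

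The members were above the defining transcription factors of the lineage they are named for, which were low in these bulk ESC libraries. On the same scale per kilobase, Gata4 was at -1.0, Gata6 at -1.67, and Sox17 at -2.15. Other genes of that list were not low: Apoe, an apolipoprotein also found in many other cells, was at 7.35, above every member, and the endocytic receptor Lrp2 was at 1.57, beside 1.56 for Col4a1, while the adaptor Dab2 was at 0.0829 and Afp had no reads in any library. In bulk RNA fewer cells of a type and less RNA per cell cannot be told apart. Of 21 regulators and markers of primitive endoderm, 18 were tested. By the test, 1 rose and 0 fell with Dppa2 siRNA, and 3 rose and 0 fell with Dppa4 siRNA, with median log2 differences of 0.35 and 0.73. The difference was above 0 in 15 of the 18 with Dppa2 siRNA and in 14 with Dppa4 siRNA. Among the rest, none of which passed, Lrp2 was at -0.59 and -0.23 in the 2 knockdowns, and Cited1 at -0.40 and -0.91. The summed log2 level of the list ranged between 8.49 and 8.96 in the controls, between 8.54 and 9.13 in the Dppa2 knockdown, and between 8.58 and 8.92 in the Dppa4 knockdown, most of it from Apoe (mean log2 8.45, not per kilobase).

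Gata6 was 0.62, 0.56 and -0.28 with control siRNA, 1.03, 1.19 and 0.92 with Dppa2 siRNA, and 1.77, 1.81 and 1.64 with Dppa4 siRNA. It rose with Dppa4 siRNA by 1.44 (adjusted p = 0.0132), and the difference with Dppa2 siRNA was 0.75 (adjusted p = 0.159). Sox17, another driver of the lineage, rose with Dppa4 siRNA by 1.20 (adjusted p = 0.0348) and differed by 0.74 with Dppa2 siRNA (adjusted p = 0.176). Hnf4a, a nuclear receptor of visceral endoderm, rose in both, by 1.33 (adjusted p = 0.0142) and 1.51 (adjusted p = 0.00859). These rises rested on few reads, 16 to 53 per control library for Sox17 and 22 to 84 for Gata6. For high-confidence genes the paper also required an intensity difference filter, which was rebuilt here. Both calls of Hnf4a passed this filter, and those of Gata6 and Sox17 with Dppa4 siRNA did not. The call of Gata6 was lost without library A or B of Dppa4 siRNA (adjusted p = 0.0666 and 0.0762), that of Sox17 without any of 5 libraries (control A or C, or any of Dppa4 siRNA, adjusted p up to 0.143), and that of Hnf4a with Dppa2 siRNA without its library A (0.0672). Without control libraries A and C, the differences of Gata6, Sox17 and Hnf4a with Dppa4 siRNA were 1.18, 0.79 and 1.12, and that of Hnf4a with Dppa2 siRNA was 0.95. The upper ends of the members' own 95% intervals with Dppa4 siRNA ran from -0.14 for Lamb1, 0.07 for Lama1 and 0.09 for Sparc to 1.17 for Nid2.

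Other components of basement membranes also gave no call. Of 35 listed, 23 were tested, and 0 passed in either knockdown, with median differences of -0.10 and -0.09. Per kilobase, on the log2 scale, the highest were the collagen XVIII chain Col18a1 at 5.65, fibronectin (Fn1) at 5.02, the proteoglycan agrin (Agrn) at 3.74, and the laminin alpha-5 chain Lama5 at 3.68, against 2.38 for Lama1. Of the other collagen IV chains, Col4a3 and Col4a4 had no reads in any library. Of 16 enzymes and inhibitors of matrix turnover, with the highest values (not per length) for Ctsl, Mmp11 and Timp1, all were tested and 0 passed.

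Enzymes and chaperones that process collagen and laminin mostly did not pass the test. Of 25 listed, 20 were tested, and the highest values (not per length) were those of P4hb, Ppib and Crtap. Among catalytic subunits of the enzyme that hydroxylates collagen prolines, P4ha1 passed with Dppa2 siRNA and P4ha2 with Dppa4 siRNA, neither passed in both, and P4ha3 was too low to be tested. P4ha1 was 4.41, 4.46 and 4.38 with control siRNA and 4.84, 4.89 and 4.97 with Dppa2 siRNA, a rise of 0.48 (adjusted p = 0.0202) that was lost without control library A, Dppa2 siRNA library A or C, or Dppa4 siRNA library B (0.0531 to 0.115). With Dppa4 siRNA the difference was 0.20 (adjusted p = 0.273). P4ha2 was 3.42, 3.53 and 3.51 with control siRNA and 2.73, 2.76 and 2.73 with Dppa4 siRNA, and fell by 0.75 (adjusted p = 0.00672), and with Dppa2 siRNA the difference was -0.44 (adjusted p = 0.0643).

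Among the matrix lists, that of cell surface matrix receptors and proteoglycans held the most lowered genes. Of 22 listed, 21 were tested. With Dppa2 siRNA 4 fell and 0 rose, and with Dppa4 siRNA 5 fell and 0 rose, with median differences of -0.08 and -0.20 over the tested genes. Bcam, Itgb1 and Itga6, which had the highest values (not per length), were not among them. Itgb4, the beta subunit of the laminin-binding integrin of hemidesmosomes, was 3.20, 3.34 and 3.20 with control siRNA, 2.17, 2.13 and 2.32 with Dppa2 siRNA, and 2.08, 2.11 and 1.77 with Dppa4 siRNA. Its groups were well apart, and it fell by 1.04 (adjusted p = 0.00306) and by 1.26 (adjusted p = 0.00113).

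Ddr2, a receptor tyrosine kinase for collagen, was 2.14, 1.71 and 1.43 with control siRNA, 0.13, -0.24 and -0.03 with Dppa2 siRNA, and -0.10, -0.54 and 0.30 with Dppa4 siRNA. It fell by 1.81 (adjusted p = 0.00712) and by 1.88 (adjusted p = 0.00647), on 67 to 184 reads in a control library and 18 to 31 in a library of Dppa2 siRNA. Itgb3, a subunit of integrins for matrix ligands, fell by 0.76 (adjusted p = 0.0431) and by 0.90 (adjusted p = 0.0209). Sdc1, the heparan sulphate proteoglycan syndecan-1, fell by 0.61 (adjusted p = 0.0313) and by 0.55 (adjusted p = 0.0471). Gpc3, a membrane-anchored glypican, fell with Dppa4 siRNA by 0.70 (adjusted p = 0.0132), and the difference with Dppa2 siRNA was -0.09 (adjusted p = 0.852). Of 6 relatives of Sparc, 3 were tested (Fstl1, Spock2 and Fst), and Spock2 fell with Dppa2 siRNA by 0.51 (adjusted p = 0.0487), with a difference of -0.48 with Dppa4 siRNA (adjusted p = 0.0592). The calls of Itgb4 and Ddr2 held with any 1 library left out, and the others did not. Neither call of Itgb3 passed the intensity difference filter, and the other receptor calls and that of Spock2 did. Without control libraries A and C, of the matrix calls only that of Itgb4 with Dppa4 siRNA held (-1.35, adjusted p = 0.0487), and Itgb4 with Dppa2 siRNA was at -1.14 (0.0727) and Ddr2 at -1.76 (0.121) and -1.83 (0.113). The other calls of receptors, P4ha1, P4ha2 and Spock2 then had adjusted p from 0.0985 to 0.312. Leaving out any 1 of the 9 libraries ended the calls of Itgb3 and Spock2 with Dppa2 siRNA (adjusted p up to 0.158 and 0.171). For Itgb3 with Dppa4 siRNA, control B or any library of Dppa4 siRNA did so (up to 0.103), and for Gpc3, control B or Dppa4 siRNA library B or C (up to 0.0837). The call of Sdc1 with Dppa2 siRNA held only without control C or Dppa2 siRNA library A (up to 0.141 otherwise), and with Dppa4 siRNA only without Dppa2 siRNA library A (up to 0.178 otherwise).

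**Figure D5:**
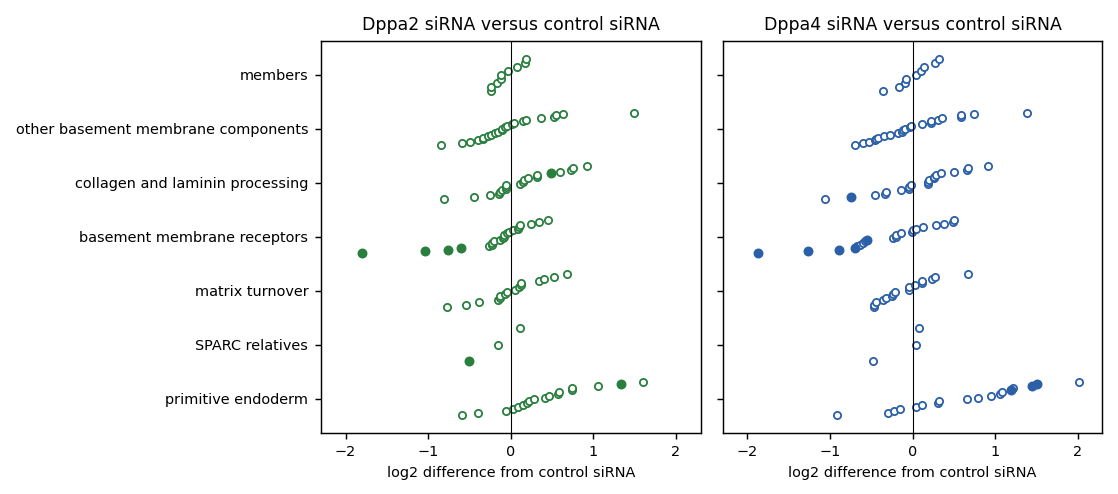
Log2 difference from control siRNA of each tested gene of the members and of 6 related lists, for Dppa2 siRNA (left) and Dppa4 siRNA (right), with filled points at an adjusted p below 0.05. The filled points lie below 0 for receptors, 4 and 5 of 21 genes, above 0 for primitive endoderm, 1 and 3 of 18 genes, and none is a member.

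Markers of other cells that make basement membrane differed in level. Of 14 fibroblast genes 7 were tested, and the highest were Col5a1 (mean log2 2.52), Thy1 (2.38) and Pdgfrb (1.82), while Lum and Postn had no reads. Pdgfrb rose by 1.08 (adjusted p = 0.00718) with Dppa2 siRNA and by 0.90 (adjusted p = 0.0173) with Dppa4 siRNA, and Col5a1 fell by 0.69 (adjusted p = 0.0403) with Dppa4 siRNA. Leaving out control A or any library of Dppa4 siRNA ended the call of Pdgfrb with Dppa4 siRNA (adjusted p up to 0.0858), and each single library but control C and Dppa2 siRNA B ended that of Col5a1 (up to 0.177). The call of Col5a1 did not pass the intensity difference filter, and both calls of Pdgfrb did. The summed log2 level of the fibroblast list lay between 4.24 and 4.41 in the controls, 4.22 and 4.35 in the Dppa2 knockdown, and 4.15 and 4.42 in the Dppa4 knockdown, so the groups overlapped. Of 12 trophoblast genes, with the highest values for Tfap2c (mean log2 5.12), Krt8 (4.07) and Krt18 (3.86), 9 were tested and 0 passed. Of 6 endothelial genes 5 were tested, led by Tek, Flt1 and Tie1, and Tek fell by 0.70 (adjusted p = 0.0288) with Dppa4 siRNA, a call that was lost without control A or B, Dppa2 siRNA A, or Dppa4 siRNA A or B (up to 0.140). None of the 11 pluripotency genes (highest Pou5f1, Dppa5a and Zfp42, at 10.27, 9.32 and 8.89) and none of the 9 tested genes of primed cells and gastrulation (highest Dnmt3b, Pou3f1 and Otx2) passed in either knockdown.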

How the data were processed

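Libraries were polyA RNA, 3 per siRNA. Upstream, Trim Galore (0.4.5 per the labels), HISAT2 2.0.5 on GRCm38, and strand-specific quantitation in SeqMonk were used, and library distributions were matched to each other. The deposited values are normalized log2 expression of 25965 genes, so a count model was not used and limma stands in for the planned DESeq2-type test. Matching distributions can hide a change shared by most genes. The 14601 genes whose log2 value exceeded -2 in 3 or more libraries entered limma 3.58.1 in R 4.3.3, on all 9 libraries, with treatment as the only term, an intensity trend, and Benjamini-Hochberg adjustment at 0.05. The tests were tried on simulated data, but no outcome of that trial is given here and no result rests on it. Reads were estimated from the steps between distinct values of a library (up to 300 reads) and from their slope above, so depths are approximate. Lengths, exons, and places came from GENCODE (22594 rows matched by name and place, 87.0%), and promoter sequences from RefSeq. Tables and figures were made with Python 3.11.15. A rebuilt intensity difference filter, an intensity-matched test at p below 0.05, left 271 and 291 of the called genes for Dppa2 and Dppa4 siRNA.

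The members, the gene lists and the tests were chosen with earlier results of these data known. Named in the text are all members, and from the other lists the genes past the threshold (at most 6 a list, by size) and the 3 most abundant, and the genes most like the members over the libraries. Further genes named as regulators, markers at 0 reads, or per kilobase were chosen after their values were seen. 1 transcript is not reported here. Alternatives were other filters, fits, pseudocounts and centring, a replicate block, libraries left out, and, chosen after seeing the data, a length and GC correction, the first component as a covariate, and the omission of control libraries A and C.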

Additional observations from a re-analysis of the deposited data

Results flagged for a closer look

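The effects of the 2 siRNAs on their own targets differed by a direct test of Dppa4 siRNA against Dppa2 siRNA over the same controls. Dppa2 was higher with Dppa4 siRNA by 3.43 log2 units (adjusted p = 2.43e-05, limma), and the difference of Dppa4 was -0.99 (adjusted p = 0.00351), each in 3 of 3 libraries. Each siRNA was aimed at 1 of these genes, so both differences were built into the design. No member passed this test, and groups of 3 libraries are too small for a search for single libraries that stand apart.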

How the results depend on the processing

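The count of members called stayed at 0 in all 3 comparisons except in these cases: 1 with Dppa2 siRNA without a low value filter and with the first component as a covariate (Sparc both times), and 1 with Dppa4 siRNA with that covariate (Lamb1). The replicate letters did not pair the libraries (same-letter correlations of -0.83 to 0.71 over 9 pairs, 3 above 0.1, and 2 of 9 libraries closest to one of their own letter). With the letter as a replicate block, 238 genes were called with Dppa2 siRNA (33 higher, 205 lower), 212 with Dppa4 siRNA (31 and 181), and 1 between the knockdowns (1 and 0). With only the 6 libraries compared, the counts were 230 (22 higher, 208 lower) and 294 (43 higher), with 1 higher between the knockdowns. Without a low value filter, 9140 genes were called with Dppa2 siRNA (8245 higher, 895 lower), of which 7462 had no reads in any library, and 5 between the knockdowns (2 lower). Above a log2 value of 0, 106 were higher with Dppa2 siRNA. With a pseudocount of 1, 1 was higher between the knockdowns. An adjusted intensity difference filter left 91 and 75 high-confidence genes. The length and GC correction called 327 and 281 higher and 2 lower between the knockdowns, and turned the difference of Hspg2 with Dppa2 siRNA to 0.0408. The first component as a covariate called 2981 (1619 higher, 1362 lower), 3607 (1933 and 1674) and 950 (521 and 429). It was computed from within-treatment deviations of the same libraries, so calls made only with it are no support. Without control libraries A and C, 97 (10 and 87) and 73 (6 and 67) were called, with 1 higher between the knockdowns, and differences turned negative with Dppa2 siRNA for Col4a2 (-0.11), Nid1 (-0.10) and Nid2 (-0.15), and with Dppa4 siRNA for Col4a1 (-0.23), Col4a2 (-0.00922), Nid1 (-0.0735), Nid2 (-0.0264) and Hspg2 (-0.13). Apart from fewer libraries or other genes tested, the cause was not tested.

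With 1 library left out, 232 to 494 genes were called with Dppa2 siRNA (25 to 191 higher, 207 to 303 lower), 184 to 506 with Dppa4 siRNA (16 to 183 and 168 to 346), and 1 to 3 between the knockdowns (1 to 2 and 0 to 1). The counts that fell by over 1.5 times were, with Dppa2 siRNA, those without control A (315) or B (314), Dppa2 siRNA A (255) or C (232), or Dppa4 siRNA B (300), and with Dppa4 siRNA those without control A (309) or Dppa4 siRNA A (205), B (184) or C (280). Differences that changed sign ranged, with Dppa2 siRNA, from -0.00699 to 0.31 for Col4a2, -0.43 to 0.22 for Hspg2, -0.47 to 0.0891 for Lamc1, -0.31 to 0.38 for Nid1, -0.29 to 0.49 for Nid2, and -0.16 to 0.000624 for Gpc3. With Dppa4 siRNA they ranged from -0.16 to 0.18 for Col4a1, -0.26 to 0.39 for Hspg2, -0.38 to 0.18 for Lamc1, -0.29 to 0.40 for Nid1, and -0.16 to 0.62 for Nid2, and the median of the members from -0.26 to 0.18. Between the knockdowns they ranged from -0.0898 to 0.00915 for Lama1, -0.0131 to 0.27 for Lamc1, -0.16 to 0.28 for Nid1, and -0.0558 to 0.38 for Nid2. The members had at least 201 reads in every library, and the shares of counting error and of the spread between libraries in their intervals were not separated.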
